A study of Mus musculus with 4 samples.

Results

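Serpins are protease inhibitors, and 7 serpin genes of mouse T cells were described here: Serpinb9, Serpinb9b, Serpinb6a, Serpinb6b, Serpinb1a, Serpina3g and Serpina3f. They were taken by name from a table of 21146 genes, and all 7 were in it. The genes were chosen by a rule that compared the knockout with the wild-type columns of this same table. Their differences between genotypes are therefore given as a description, with no p-value, and the number of them past the threshold used for all genes is printed only beside the share of all genes past it. The RNA came from T cells that had infiltrated a tumour in C57BL/6 mice, collected 21 days after the animals received it, and was sequenced in bulk. The wild-type group had 2 libraries, and the group labelled Map4k1 knockout had 2. Map4k1 encodes HPK1, a kinase that dampens signalling from the T cell receptor. The tumour, the sorting gate and the knockout allele are not named in the labels, nor is it said whether each library is a mouse of its own. The p-values given for other genes therefore weigh a difference against the spread of 2 libraries, and that spread may be technical.

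A serpin inhibits by bait. The protease cuts an exposed stretch of the serpin, the reactive centre loop, and the serpin then springs into a new shape that traps the enzyme. Cytotoxic T cells store granzymes, which are serine proteases, together with perforin in secretory granules, and the serpins of their cytosol are known for guarding the cell against its own leaked proteases. Clade B serpins act inside cells, and the clade A3 genes of the mouse are a locally expanded family that includes members found inside leukocytes.

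Map4k1 was 48.9 and 41.1 FPKM in the wild-type libraries and 20.6 and 26.5 FPKM in the libraries labelled knockout. FPKM, a count of fragments divided by transcript length and library size, is a level per length. The Map4k1 transcript fell by 0.91 in log2(FPKM + 1) (SE 0.151), with an adjusted p of 0.0134 in limma, and was not absent. The limma adjusted p was 0.0634 without knockout replicate 1 and 0.0764 without the filter on low values. All 9 of 9 T cell markers were in the table, and their summed level was 1436 and 1490 FPKM in wild type, against 1496 and 1481 FPKM in knockout. Single markers within this sum went both ways. Cd2 was 165 and 177 FPKM in wild type, against 244 and 257 FPKM in knockout. Cd3d was 226 and 224 FPKM in wild type, against 171 and 177 FPKM in knockout. Summed markers of some other cell types differed between the genotypes. Dendritic cell markers (6 of 8 in the table) summed to 31.5 and 34.1 FPKM in wild type, against 0.655 and 0.865 FPKM in knockout, nearly all of it from Fscn1 and Ccl22, while Flt3 was 0.821 and 1.31 FPKM against 0 and 0.0379 FPKM. Mast cell and basophil markers (4 of 8) summed to 11.6 and 11.8 FPKM against 1.51 and 1.20 FPKM, mostly from Kit (5.58 and 5.05 against 1.40 and 0.633 FPKM) and Mcpt8 (5.51 and 5.88 against 0.0752 and 0.0727 FPKM), with Cpa3 at 0.166 FPKM or less in every library. NK cell markers (3 of 5) summed to 15.8 and 16.1 FPKM against 4.90 and 4.96 FPKM, nearly all from Klrb1c, with Ncr1 at 0.0821 FPKM or less. Epithelial markers (5 of 5) summed to 11.5 and 12.8 FPKM against 2.98 and 3.02 FPKM, mostly from Epcam (6.64 and 6.94 against 2.02 and 1.86 FPKM) and Cdh1 (4.59 and 5.32 against 0.7997 and 0.937 FPKM), with Krt8 listed at 0 in 3 libraries. The neutrophil, monocyte and macrophage sum (9 of 12) was 7.83 and 7.50 FPKM against 6.15 and 4.78 FPKM, with Lyz2 at 0.0491 FPKM or less. The B cell sum (2 of 5) was 3.93 and 4.49 FPKM against 4.96 and 4.55 FPKM, with Cd79a listed at 0 in both wild-type libraries. Fibroblast markers (5 of 5) summed to 1.23 and 4.14 FPKM against 1.13 and 1.18 FPKM, and melanocyte markers (5 of 5) stayed at or below 0.805 FPKM. The part of these cell types in the serpin values was not tested.

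The reactive centre loops are printed because this stretch is known to set much of which protease a serpin inhibits. Close copies also shared fewer bases in it, compared position by position, than over the aligned coding sequence. Each sequence is 72 coding bases from GENCODE M21 transcripts on GRCm38, 24 codons that start at the conserved hinge glycine, 5′ to 3′ on the strand of the gene. Capitals mark the codons of the P1 and P1′ residues, between which a protease cuts, as counted from the hinge and not as measured. The Serpinb9 loop is at chr13:33015699-33015770 (+), Serpinb9b at chr13:33039802-33039873 (+), Serpinb6a at chr13:33918122-33918193 (-), Serpinb6b at chr13:32978207-32978278 (+), Serpinb1a at chr13:32842899-32842970 (-), Serpina3g at chr12:104241072-104241143 (+) and Serpina3f at chr12:104220245-104220316 (+). Each lies within 1 coding exon.
Serpinb9: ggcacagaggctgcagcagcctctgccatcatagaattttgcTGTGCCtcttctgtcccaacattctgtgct
Serpinb9b: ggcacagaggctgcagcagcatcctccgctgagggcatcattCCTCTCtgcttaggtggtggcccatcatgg
Serpinb6a: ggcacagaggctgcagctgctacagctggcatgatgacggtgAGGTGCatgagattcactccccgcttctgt
Serpinb6b: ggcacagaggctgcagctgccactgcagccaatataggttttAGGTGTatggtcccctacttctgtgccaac
Serpinb1a: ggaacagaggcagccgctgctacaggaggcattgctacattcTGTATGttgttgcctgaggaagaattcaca
Serpina3g: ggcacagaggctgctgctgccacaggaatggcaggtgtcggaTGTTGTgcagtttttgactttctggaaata
Serpina3f: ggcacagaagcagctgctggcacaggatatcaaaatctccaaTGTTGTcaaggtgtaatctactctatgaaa
The loops open with similar bases at the hinge and differ before the capitals. The capitals are the same in Serpina3g and Serpina3f. Those of Serpinb6a and Serpinb6b differ only in the last base, which leaves the coded residues the same. Serpinb9 and Serpinb9b shared 86.5% of their aligned coding bases but 44.4% of the bases of the loop. The same figures were 86.4% and 58.3% for Serpinb6a and Serpinb6b, and 87.6% and 59.7% for Serpina3g and Serpina3f. The 2 measures are unlike. Coding bases were aligned with gaps, and loop bases were compared position by position without gaps, so a shift within a loop counted as a difference. The annotated Serpina3g transcript codes for 248 residues against 445 in Serpina3f, so the Serpina3g identities cover the aligned bases of a short gene model, in which the loop was placed by its hinge. Identity of the coded proteins was 76.7%, 81.1% and 77.8% for these 3 pairs, and 34.2% to 56.5% for all other pairs of the 7.

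All 5 listed clade B serpins were lower in both knockout libraries than in both wild-type libraries, and the clade A3 genes differed little. The 7 genes together summed to 497 and 508 FPKM in wild type, against 194 and 192 FPKM in knockout. The 5 genes of chromosome 13 made up 393 and 407 FPKM of this in wild type and 105 and 109 FPKM in knockout. The pair on chromosome 12 made up 104 and 101 FPKM against 88.7 and 83.7 FPKM. In these bulk libraries, fewer cells of a type and less RNA per cell cannot be told apart.

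All 7 genes passed the filter on low values, which asked for at least 1 FPKM in at least 2 libraries, but Serpinb9b passed it through its wild-type libraries only and so had to differ. In limma, 5 of the 7 were past an adjusted p of 0.05, all lower in knockout, against a background of 13.0% lower and 15.4% higher (28.4% in all) among the 11947 genes tested. Values of 6 of the 7 did not overlap between genotypes and were lower in knockout, against 31.4% of all tested genes. The median log2 fold change was -1.64 over the 7 and 0.04 over all tested genes. The choice of genes used this contrast, so nothing is read from these counts.

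**Figure D1:**
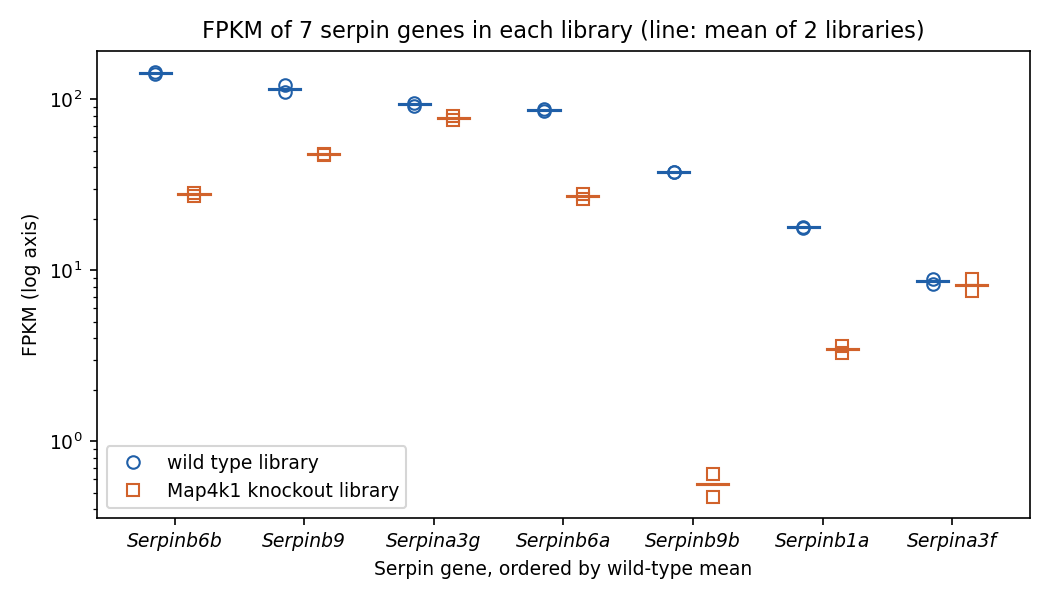
FPKM of the 7 serpins in each of the 4 libraries on a log axis, with a point per library and a line at the mean of each genotype. The 5 clade B genes have separate wild-type and knockout points, from 110 and 121 against 47.3 and 48.1 FPKM in Serpinb9 to 37.7 and 37.9 against 0.474 and 0.645 FPKM in Serpinb9b, while the points of Serpina3f overlap.

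The granzyme inhibitors come first. Serpinb9 (chr13:33003250-33017957, +; ENSMUSG00000045827), also called SPI6, inhibits granzyme B and protects cytotoxic lymphocytes from it. It was 110 and 121 FPKM in wild type, against 47.3 and 48.1 FPKM in knockout. The groups did not overlap, and the knockout mean was 41.3% of the wild-type mean. The log2 fold change was -1.26 (SE 0.083, n = 2 per genotype).

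Serpinb9b (chr13:33027416-33041884, +; ENSMUSG00000021403) is the neighbouring copy of Serpinb9 and is known as an inhibitor of granzyme M. It was 37.7 and 37.9 FPKM in wild type, against 0.474 and 0.645 FPKM in knockout. The wild-type values lay close together, and both knockout values were below 1 FPKM. The steps between low FPKM values put these levels at about 2439 and 2290 fragments in wild type and about 32 and 45 in knockout. The ratio of mean FPKM was 67.6, the widest of the 7, and the log2 fold change was -4.64 (SE 0.112), which understates the change because 1 FPKM is added to each value.

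Serpinb6b (chr13:32965209-32979067, +; ENSMUSG00000042842) inhibits granzyme A in the mouse. It was the highest of the 7 in wild type, at 140 and 145 FPKM, and was 27.2 and 28.5 FPKM in knockout. The groups were far apart compared with the spread within each. The knockout mean was 19.5% of the wild-type mean, and the log2 fold change was -2.32 (SE 0.076).

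Serpinb6a and Serpinb1a are known as inhibitors of the serine proteases of myeloid granules. Serpinb6a (chr13:33917918-34002794, -; ENSMUSG00000060147) is the mouse counterpart of human PI-6, which inhibits cathepsin G. It was 87.5 and 85.7 FPKM in wild type, against 26.3 and 28.1 FPKM in knockout, without overlap, with a log2 fold change of -1.64 (SE 0.08). The knockout mean was 31.4% of the wild-type mean. Serpinb6a overlaps Nqo2, Ripk1 and the antisense gene 1110046J04Rik on the other strand. The strand setting of the counting is not given in the sources used here, so it is not known whether reads were assigned by strand. Nqo2 was 3.88 and 4.41 FPKM against 3.48 and 3.25 FPKM, and Ripk1 was 24.4 and 26.1 FPKM against 24.04 and 24.7 FPKM. The part of reads from the other strand in the Serpinb6a values was not tested. Serpinb9b likewise overlaps an annotated antisense gene, Gm36099.

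Serpinb1a (chr13:32842092-32851185, -; ENSMUSG00000044734) inhibits neutrophil elastase, cathepsin G and proteinase 3. It was 17.9 and 17.8 FPKM in wild type, against 3.62 and 3.27 FPKM in knockout. Its wild-type values differed by less than those of any other listed serpin except Serpinb9b, and the groups did not overlap. The knockout mean was 19.3% of the wild-type mean, close to the 19.5% of Serpinb6b, and the log2 fold change was -2.09 (SE 0.103).

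The chromosome 12 genes differed in another way. Serpina3g (chr12:104236245-104241939, +; ENSMUSG00000041481), also called Spi2A, inhibits cysteine cathepsins such as cathepsin B in the cytosol. It was 95.1 and 92.2 FPKM in wild type, against 79.8 and 76.2 FPKM in knockout. The groups did not overlap, the knockout mean was 83.3% of the wild-type mean, and the log2 fold change was -0.26 (SE 0.075). Serpina3f (chr12:104214544-104221129, +; ENSMUSG00000066363) was 8.91 and 8.35 FPKM in wild type, against 8.93 and 7.52 FPKM in knockout. Its genotypes overlapped, with the highest value in a knockout library, and the log2 fold change was -0.07 (SE 0.12).

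**Figure D2:**
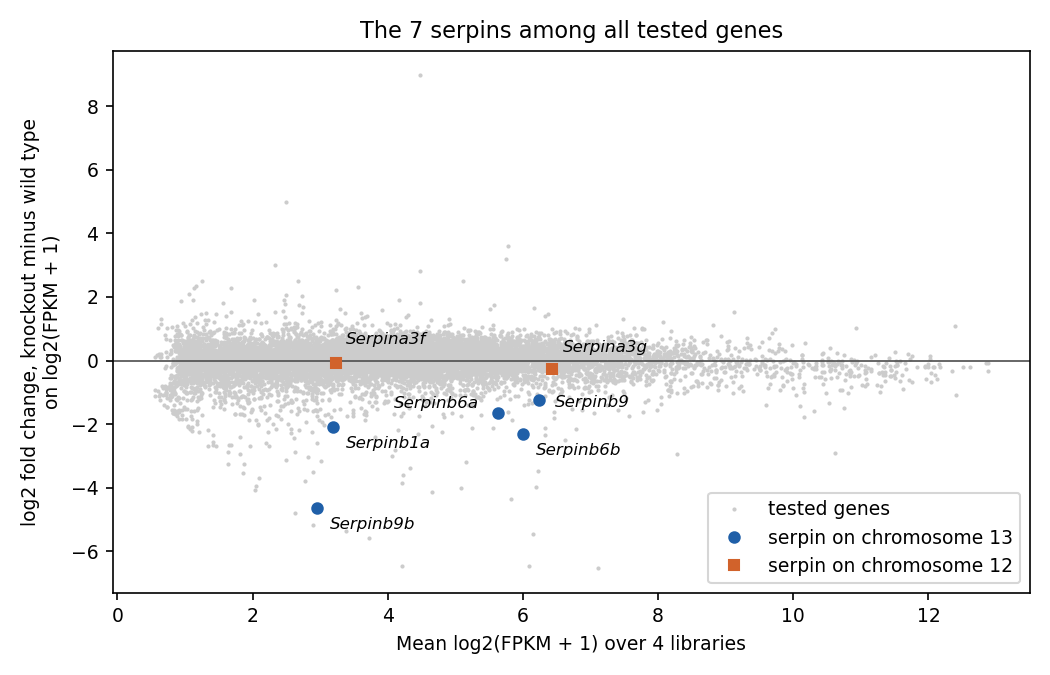
Log2 fold change (knockout minus wild type) against mean log2(FPKM + 1) for the 11947 tested genes in grey, with the 7 serpins marked and named. Serpinb9b at -4.64 and Serpinb6b at -2.32 lie far under the grey median of 0.04, and Serpina3g at -0.26 and Serpina3f at -0.07 lie near it.

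Among the 11947 tested genes, 8 had a lower log2 fold change than Serpinb9b, 53 a lower one than Serpinb6b and 72 a lower one than Serpinb1a. The numbers were 137 for Serpinb6a, 250 for Serpinb9, 2742 for Serpina3g and 4691 for Serpina3f. In the plot of fold change against level the 5 clade B genes therefore sat in the lower fringe of the cloud and the A3 genes inside it.

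The order of the levels differed between the genotypes. In wild type it ran from Serpinb6b through Serpinb9, Serpina3g, Serpinb6a, Serpinb9b and Serpinb1a to Serpina3f, and no neighbours in this order overlapped. In knockout Serpina3g came first, then Serpinb9, then Serpinb6b and Serpinb6a, whose ranges overlapped, then Serpina3f, Serpinb1a and Serpinb9b. Serpina3g was 19.1% and 18.2% of the summed FPKM of the 7 genes in wild type and 41.2% and 39.6% in knockout. Serpinb9 held 22.1% and 23.8% of that sum in wild type and 24.4% and 24.98% in knockout, so its share differed little while its level did. Serpinb6b went from 28.2% and 28.5% to 14.05% and 14.8%.

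Near-identical copies could share reads. Of the 50-base windows of the listed transcripts, 16.0% in Serpina3g and 12.1% in Serpina3f also occurred in another gene, against 0.4% in Serpinb9, 0.5% in Serpinb9b and 3.0% to 3.4% in Serpinb6a, Serpinb6b and Serpinb1a. Of the 100-base windows, 4.6% in Serpina3g and 4.0% in Serpina3f did so, and 0 in the clade B genes. The A3 values are the less certain ones for that reason. Serpinb9 and Serpinb9b, next to each other on the chromosome, differed 2.42-fold and 67.6-fold between the genotypes.

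Proteases of granules and lysosomes were taken from a list of 32 genes, of which 28 were in the table and 21 were tested. The list also held Prf1, for perforin, which is a pore-forming protein and no protease. In limma 11 fell, Prf1 among them, 1 rose (Ctsw, for cathepsin W) and 9 did not pass, against 13.0% lower and 15.4% higher among all tested genes. The median log2 fold change was -0.36. Of those that fell, Mcpt8 and Ctsh passed the filter on low values through wild type only and so had to differ. Gzmf (1.32 and 0.602 FPKM in knockout) and Gzmg (1.10 and 0.866 FPKM in knockout) also passed that filter only with the help of wild type. The calls of Ctsa and Ctsw were lost without knockout replicate 1 and without knockout replicate 2. That of Ctsa, for cathepsin A, which fell, was also lost without the filter on low values (limma adjusted p = 0.0649) and with scaling to equal totals (0.15). Gzma, the granzyme A gene, was 2044 and 2175 FPKM in wild type, against 599.8 and 626 FPKM in knockout and fell by 1.78 in log2 units (SE 0.082), with an adjusted p of 0.000651 in limma. Gzmb, the granzyme B gene, was 8251 and 8573 FPKM against 6865 and 6671 FPKM, a log2 fold change of -0.31 that did not pass (limma adjusted p = 0.0543, and 0.0458 to 0.0498 in the 3 alternatives where it did). Gzmm, for granzyme M, was 1.66 and 0.721 FPKM against 1.94 and 1.76 FPKM and did not pass (limma adjusted p = 0.243).

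Ctsb, for cathepsin B, was 23.9 and 23.7 FPKM against 23.96 and 23.1 FPKM (limma adjusted p = 0.877), and Ctsl, for cathepsin L, gave an adjusted p of 0.563. Myeloid granule proteases were scarce. Ctsg, for cathepsin G, was 0.925 and 1.40 FPKM in wild type, against 0.0602 and 0 FPKM in knockout and was under the filter. Prtn3, for proteinase 3, was 0 in 3 libraries and 0.284 FPKM in knockout replicate 1. Elane, for neutrophil elastase, was on the list but was not in the table. The 4 other proteases with the lowest p were the granzyme genes Gzmg, Gzmd, Gzme and Gzmc, all past the threshold, with log2 fold changes of -6.46, -6.53, -6.47 and -2.95 (limma adjusted p = 2.93e-05 for Gzmg, Gzmd and Gzme and 6.24e-05 for Gzmc). These granzyme genes are close copies of each other, and reads may have been split between them.

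Setting each granzyme inhibitor beside its enzyme gave ratios of transcript levels. Serpinb9 was 1.33% and 1.41% of Gzmb FPKM in wild type, against 0.689% and 0.720% in knockout. Serpinb6b was 6.87% and 6.66% of Gzma FPKM in wild type, against 4.54% and 4.56% in knockout. In both pairs the serpin was lower relative to its enzyme in each knockout library, and the wild-type values lay above both knockout values. The Serpinb9b level was 2275% and 5253% of Gzmm in wild type and 24.5% and 36.6% in knockout, where Gzmm itself was near the filter. Serpina3g was 397% and 388% of Ctsb in wild type and 333% and 331% in knockout. Relative to Ctsg, which was at or near 0 in knockout, the ratios ran the other way: Serpinb6a was 9457% and 6139% of Ctsg in wild type, against 43704% in knockout replicate 1, and Serpinb1a was 1939% and 1276%, against 6013%. Ctsg was 0 in knockout replicate 2, which gave no ratio. These are ratios of transcripts and not of proteins.

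**Figure D3:**
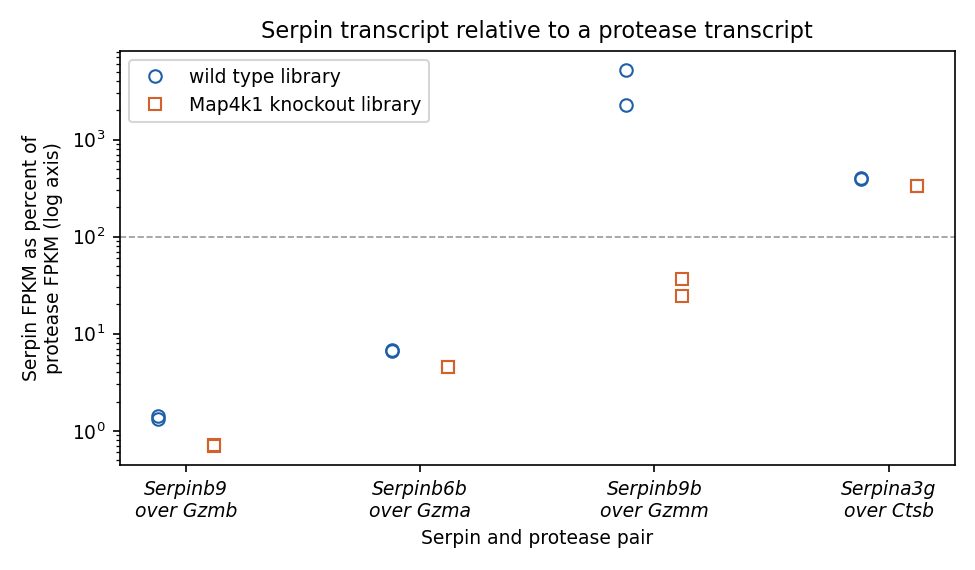
Serpin FPKM as a percentage of protease FPKM in each of the 4 libraries, on a log axis, for the serpins and proteases named along the horizontal axis, with a dashed line where both levels are equal. Serpinb9 relative to Gzmb is 1.33% and 1.41% in wild type, against 0.689% and 0.720% in knockout, and the knockout points lie under the wild-type points in the 4 pairs drawn. Ratios to Ctsg and Ctsl are not drawn.

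Of 61 other annotated serpin genes, 17 were in the table and 2 were tested. Serpine2, which encodes the secreted inhibitor protease nexin-1 and acts on thrombin and plasminogen activators, was 91.9 and 99.3 FPKM in wild type, against 32.3 and 28.5 FPKM in knockout. Serpine2 fell by 1.62 in log2 units (SE 0.097), with an adjusted p of 0.00127 in limma, a size near that of Serpinb6a. Serpinf1, for the secreted and non-inhibitory serpin PEDF, was 2.32 and 3.20 FPKM against 3.16 and 3.85 FPKM and did not pass (limma adjusted p = 0.286). Serpinb1b, on chromosome 13 as is Serpinb1a, was under the filter at 0.290 and 0.413 FPKM against 0.0619 and 0.0599 FPKM. Of the serpins that were not listed, Serpine2 alone reached 5 FPKM in a library.

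Cystatins are the inhibitors of cysteine cathepsins outside the serpin family. Of 8 listed, 7 were in the table, 4 were tested and all 4 fell, against 13.0% lower among all tested genes. Cst3, for cystatin C, fell by 0.94 (limma adjusted p = 0.00302). Cst7, for cystatin F, which controls cathepsin C in cytotoxic cells, fell by 0.51 (adjusted p = 0.00941), and Cstb, for cytosolic cystatin B, by 0.41 (adjusted p = 0.031). Stfa3, a stefin A gene, was 1.95 and 1.60 FPKM in wild type and had 0 listed for both knockout libraries, so it passed the filter through wild type only and had to differ. Cst7 and Cstb did not pass without knockout replicate 1, nor without knockout replicate 2, which left 2 of the 4 each time. Cstb also missed the threshold without wild-type replicate 2, where its log2 fold change was -0.319. The call of Cstb was lost in limma without the filter on low values (adjusted p = 0.0943) and with scaling to equal totals (0.094). It was also lost without the mean-variance trend (limma adjusted p = 0.0539).

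The 7 genes lie in 2 clusters. The chromosome 13 cluster holds 16 annotated serpins, 8 in the table, and its 5 tested serpins were the 5 clade B genes described here. The chromosome 12 cluster holds 28, with 5 in the table and 2 tested. Tested genes other than serpins within 500000 bases of the clusters were then listed, a window chosen after the serpin values were known. On chromosome 13, 4 of these 8 genes fell (Gm17084, Bphl, Tubb2a and Tubb2b), 0 rose and 4 did not pass (Wrnip1, Nqo2, Ripk1 and Psmg4), against 13.0% lower and 15.4% higher among all tested genes. Their median log2 fold change was -0.36. Gm17084 (0.538 and 1.52 FPKM in knockout) passed the filter on low values only with the help of wild type. The 5 serpins had log2 fold changes of -1.26 to -4.64. Serpinb9 at -1.26 and Gm17084 at -1.20 (SE 0.274) did not differ beyond their error, and without wild-type replicate 2 they were -1.19 and -1.37. On chromosome 12, 2 of 6 fell (Asb2 and Ifi27), 2 rose (Ddx24 and Dicer1) and 2 did not pass. Asb2, at 109 and 99.7 FPKM against 44.5 and 41.9 FPKM, fell by 1.25 (limma adjusted p = 0.00192). The call of Asb2 held when any single library was left out, and those of the other neighbours that passed were lost without at least 1 library.

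**Figure D4:**
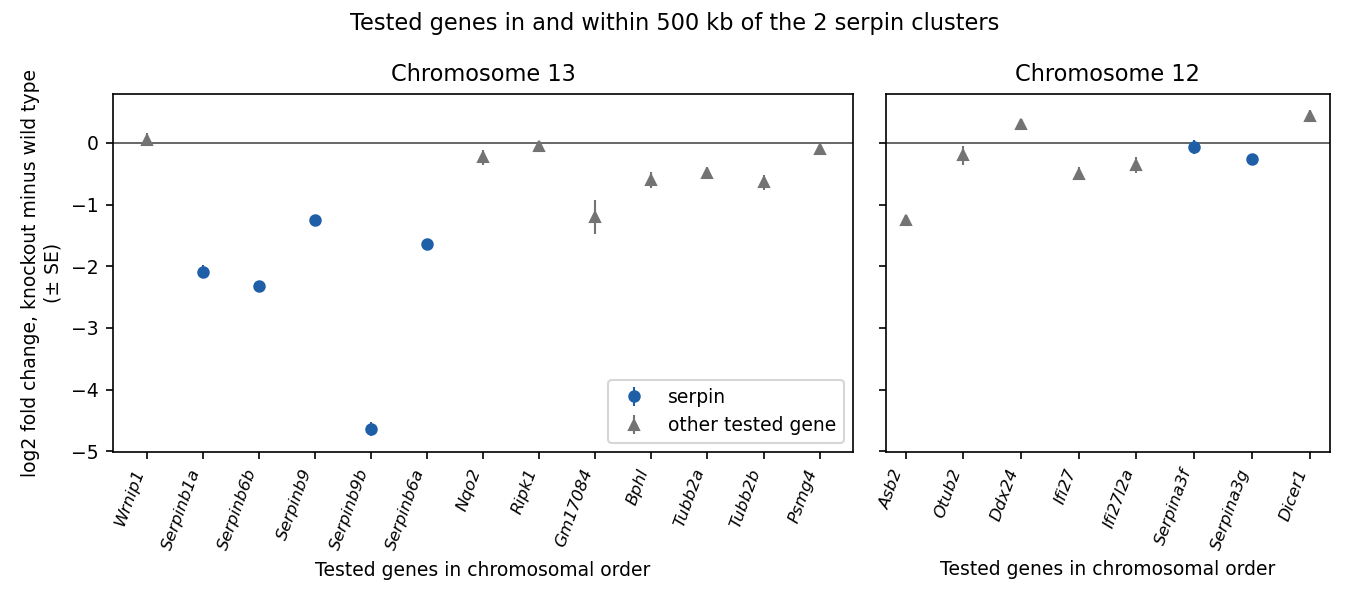
Log2 fold change (knockout minus wild type, with SE) of the tested genes in and within 500000 bases of the 2 serpin clusters, in chromosomal order, serpins set apart from other genes by colour. On chromosome 13 the 5 serpins lie between -1.26 and -4.64, and the other genes lie between -1.20 and 0.06. On chromosome 12 Asb2 at -1.25 lies lower than either serpin.

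Promoter sequence was looked at because the listed genes differ between the 2 clusters. RefSeq windows on GRCm38.p6 were matched for 6 of the 7 genes by symbol, in 8 windows of 300 bases that run from 250 before a start of the gene to 50 after it. The 250 bases before the start are printed for 5 windows where these bases touch no GENCODE M21 exon of the same gene. They run 5′ to 3′ on the strand of the gene. Exons of other genes were not checked, and the printed Serpinb6a bases lie within the Ripk1 gene (chr13:34002363-34037147, +). Capitals mark matches, on either strand, to the interferon gamma activated site TTCNNNGAA or the interferon response core GAAANNGAA, and adjoining matches overlap in Serpina3f and Serpinb6a. The coordinates are chr13:33004291-33004540 (+) for Serpinb9, chr13:33027164-33027413 (+) for Serpinb9b, chr13:34002795-34003044 (-) for Serpinb6a, chr12:104235897-104236146 (+) for Serpina3g and chr12:104214294-104214543 (+) for Serpina3f.
Serpinb9 promoter: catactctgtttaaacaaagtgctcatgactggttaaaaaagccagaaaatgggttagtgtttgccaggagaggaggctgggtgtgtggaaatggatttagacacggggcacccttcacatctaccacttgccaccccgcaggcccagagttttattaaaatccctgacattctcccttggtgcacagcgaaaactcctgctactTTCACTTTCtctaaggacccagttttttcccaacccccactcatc
Serpinb9b promoter: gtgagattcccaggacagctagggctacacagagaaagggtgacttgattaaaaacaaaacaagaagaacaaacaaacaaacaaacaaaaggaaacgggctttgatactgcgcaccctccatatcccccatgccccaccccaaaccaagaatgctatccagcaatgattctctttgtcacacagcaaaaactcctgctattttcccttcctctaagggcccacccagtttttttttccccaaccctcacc
Serpinb6a promoter: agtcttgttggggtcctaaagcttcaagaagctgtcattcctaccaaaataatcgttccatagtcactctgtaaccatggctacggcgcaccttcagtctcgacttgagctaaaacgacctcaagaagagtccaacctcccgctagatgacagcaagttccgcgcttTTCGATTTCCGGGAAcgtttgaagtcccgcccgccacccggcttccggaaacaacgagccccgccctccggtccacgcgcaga
Serpina3g promoter: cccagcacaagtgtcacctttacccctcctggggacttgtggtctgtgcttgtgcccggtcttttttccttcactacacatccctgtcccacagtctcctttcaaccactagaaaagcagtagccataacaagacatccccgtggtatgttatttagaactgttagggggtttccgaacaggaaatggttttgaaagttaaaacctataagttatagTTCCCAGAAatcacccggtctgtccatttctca
Serpina3f promoter: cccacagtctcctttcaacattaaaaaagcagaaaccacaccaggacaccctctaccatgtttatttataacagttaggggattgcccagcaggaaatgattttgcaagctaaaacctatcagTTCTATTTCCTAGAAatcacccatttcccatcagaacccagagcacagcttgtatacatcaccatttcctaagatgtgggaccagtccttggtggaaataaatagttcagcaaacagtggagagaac
Of all 32851 promoter windows of 300 bases, 8.3% held the activated site, 8.6% the interferon response core and 7.8% the AP-1 motif TGANTCA. No listed serpin window held TGANTCA. Serpinb9 held a response core at -45 to -37, Serpina3g an activated site at -33 to -25, and Serpina3f both, at -127 to -119 and -121 to -113. Serpinb6a held both, at -83 to -75 and -77 to -69, with a further activated site at 20 to 28 after this start and a response core at 4 to 12 after another of its starts. Serpinb9b and Serpinb6b held neither. The aligned upstream bases of Serpinb9 and Serpinb9b were 68.6% identical, and those of Serpina3f and Serpina3g 82.6%. A match of letters is a description and not a site in use, and genes with a match were found on both sides, among those that were lower in knockout and those that differed little.

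Genes with the most similar profile across the 4 libraries were found by distance between centred log2(FPKM + 1) values among 8405 genes. Serpinb9b had no gene within a distance of 0.25, and its nearest were the chemokine genes Ccl3 (0.339), Ccl9 (0.458) and Ccl1 (0.52). Serpinb6b was nearest to Egr1 (0.103), Bcl2a1a (0.157) and the chemokine gene Ccl5 (0.163). Serpinb1a was nearest to Gem (0.049), Il10 (0.105) and Gsn (0.125), and Serpinb6a to Itgb3 (0.049), Ccn3 (0.051) and Etv5 (0.075). Serpinb9 was nearest to Tmem267 (0.038), Pparg (0.075) and Hist2h2aa1 (0.092). Serpina3g and Serpina3f had 1825 and 1957 genes within 0.25, against 41, 29, 12 and 10 for Serpinb9, Serpinb6a, Serpinb1a and Serpinb6b, so their profiles were common ones. Their nearest genes were Serhl (0.017), Rnf114 (0.025) and Hsd17b4 (0.027) for Serpina3g, and Fli1 (0.012), Thap4 (0.015) and Itpr3 (0.04) for Serpina3f. With 4 libraries in 2 groups, this distance is set largely by the size of the genotype difference.

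The size of the differences depended on the processing to a varying degree. Over 12 alternatives the log2 fold changes ran from -1.32 to -1.10 for Serpinb9, -5.86 to -4.53 for Serpinb9b, -1.68 to -1.48 for Serpinb6a, -2.35 to -2.16 for Serpinb6b and -2.35 to -1.95 for Serpinb1a. The -5.86 of Serpinb9b and the -2.35 of Serpinb1a came with a pseudocount of 0.1 FPKM, and the value nearest to 0 of each clade B gene came with equal totals. Serpina3g ran from -0.29 to -0.10 and was past the threshold in 3 of the 12, though not in the main analysis. Serpina3f ran from -0.18 to 0.08, above 0 in 2 of the 12, so its direction was not fixed.

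**Figure D5:**
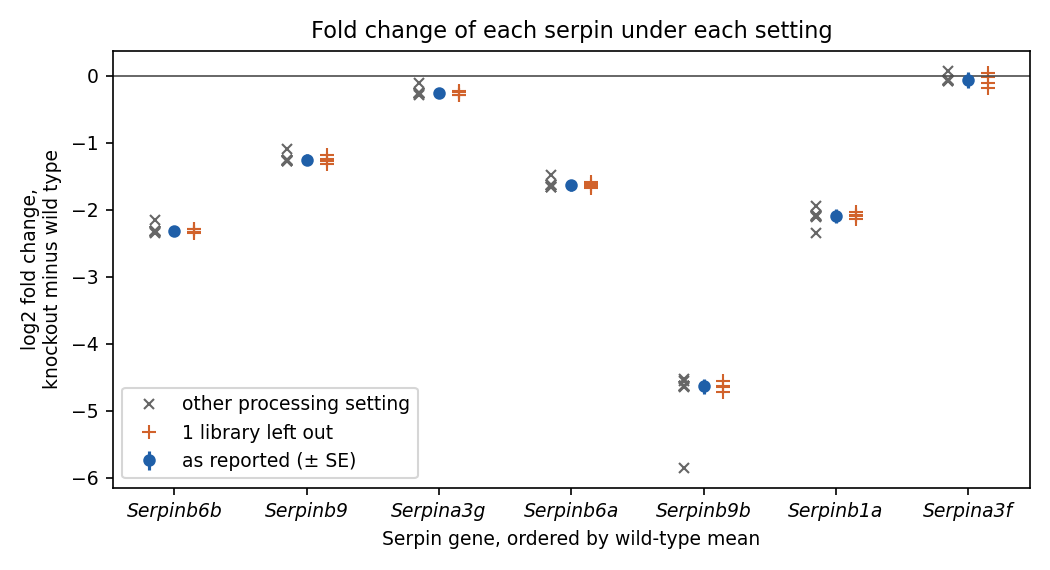
Log2 fold change (knockout minus wild type) of the 7 serpins under the main analysis and 12 alternatives, with filled points for the values as reported (with SE), crosses for other processing and plus signs for fits with 1 library left out. Serpinb9b spreads from -5.86 to -4.53, each of the other clade B genes keeps to a narrow range under -1, and Serpina3f lies on both sides of 0.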

How the data were processed

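The values are FPKM, as the authors deposited them, for Ensembl genes in 4 libraries. Per the submitters' processing notes, HISAT and Cuffnorm were used with build GRCm38; versions, annotation, strandedness and scaling option are not given in the sources used here. Symbols came from GENCODE M21 for 21028 of 21146 gene IDs. After a log2(FPKM + 1) transform, the 11947 genes that reached 1 FPKM in 2 or more libraries were fitted with limma 3.58.1 (R 4.3.3, Python 3.11.15), with a mean-variance trend, 2 residual degrees of freedom and two-sided tests. P-values were adjusted by Benjamini-Hochberg over all of them, at a threshold of 0.05. The script was tested on simulated data. Alternatives covered the pseudocount, the filter, the scaling, quantile normalization, the trend, a replicate block and leaving out each library. Fold changes on this scale understate the change of low genes.

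The genes described, and the lists of proteases, cystatins and cell markers, were chosen with earlier results of these data known. The named genes were the 7 serpins, other serpins past the threshold or at 5 FPKM, proteases known as targets, and the lowest p-values of each list. Serpinf1, Serpinb1b and the genes flanking the clusters were chosen after their values were seen.

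The table held no counts. Steps between low FPKM values gave an approximate depth of 20200000 to 23200000 fragments per library, and 90.6% to 91.8% of low values lay within 0.1 of a whole fragment, partly because the scale was fitted to the same values. Chi-square divided by its degrees of freedom was 9.74 for the wild-type pair and 4.78 for the knockout pair, so neither pair was a copy. Same-numbered replicates did not deviate together (correlation -0.0321), so the numbers were not used as pairs.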

Additional observations from a re-analysis of the deposited data

How the results depend on the processing

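The count of genes past the threshold was 3390, and 1231 without the filter on low values. It ranged from 579 to 3235 when a library was left out, with 579 without knockout replicate 1 and 945 without knockout replicate 2, where the single library that remained was taken to vary as the other genotype did. With the replicate number as a replicate block it was 2801, and the counts of listed serpins (5), other serpins (1) and proteases (11) stayed within 1.5 times. Scaling to equal totals raised the median log2 fold change of all genes by 0.143 and the share of calls that were higher from 54.2% to 75.8% (1110 lower and 3481 higher). Of 84 values of the 7 serpins under alternatives, 75 moved by less than the spread between replicates and 9 by more, 7 of them with equal totals. The depth limits Serpinb9b most, which rested on about 32 and 45 fragments in knockout. The causes were not tested.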
